A study of Mus musculus with 16 samples.

Results

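Dendritic cell genes were followed in mice carrying a subcutaneous Hepa1-6 tumour, a mouse hepatoma line. The set held 10 genes of the 16535 that the array names: Itgax and Flt3 as genes of all dendritic cells, Xcr1, Clec9a, Batf3 and Irf8 as genes of type 1 conventional dendritic cells (cDC1), Siglech for plasmacytoid dendritic cells, and Ccl17, Ccl22 and Fscn1 for mature dendritic cells. The genes were chosen by name, and their probes were found through the RefSeq identifier that the array gives for each probe. Of these genes 9 had a probe bright enough to be tested, among 12311 tested genes. Flt3 did not.

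Gene expression was measured on 16 Agilent arrays with 2 colours, 1 array per sample. On 8 arrays Cy5 carried RNA of the tumour fraction enriched in infiltrating inflammatory cells (labelled TIC), prepared by mashing tumours and density gradient centrifugation. On the other 8 arrays Cy5 carried blood RNA of mice with tumours. Both were taken on day 10 after inoculation of Hepa1-6 cells. All samples were labelled female and C57Bl/6, and the treatment text calls the inoculated mice athymic. Athymic mice lack most T cells. On every array Cy3 carried one reference, blood RNA of untreated female C57Bl/6 mice. Dyes were never exchanged, so a dye effect on a probe was not cancelled. Fraction and blood RNA were extracted with different kits. The sample numbers 889 to 898 occurred in both groups, and nothing in the labels says whether a number is an animal, so p-values measure the spread between these samples.

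Dendritic cells take up antigen in tissues and carry it to lymph nodes, where they present it to T cells. Type 1 conventional dendritic cells depend on the transcription factors Batf3 and Irf8 and present antigen of dying cells, including tumour cells, to CD8 T cells. Plasmacytoid dendritic cells secrete type I interferon, and maturing dendritic cells of any kind switch on migration genes and the chemokines Ccl17 and Ccl22.

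The promoters of 4 genes are shown because the Cy5 signal of these 4 separated the infiltrating fraction from blood under the criterion used throughout. Each line holds the 250 bases before the annotated start in the strand of the gene, from RefSeq on the build GRCm38.p6. All 10 genes matched the RefSeq table, in 11 windows, since Irf8 has 2 starts and its first is shown. Capitals mark matches, on either strand, to 4 motifs. TGANTCA is the AP-1 site, the kind of site bound by Batf3 with its Jun partners, and TATAAA is the TATA box. The core of the interferon-stimulated response element and GAGGAAGT, a core bound by PU.1, were searched as well. No motif overlapped another in these windows.
Itgax: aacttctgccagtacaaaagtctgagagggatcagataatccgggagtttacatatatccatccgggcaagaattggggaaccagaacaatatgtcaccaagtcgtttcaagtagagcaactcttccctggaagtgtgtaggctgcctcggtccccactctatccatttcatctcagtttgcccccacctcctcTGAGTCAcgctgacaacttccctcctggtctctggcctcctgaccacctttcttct
Batf3: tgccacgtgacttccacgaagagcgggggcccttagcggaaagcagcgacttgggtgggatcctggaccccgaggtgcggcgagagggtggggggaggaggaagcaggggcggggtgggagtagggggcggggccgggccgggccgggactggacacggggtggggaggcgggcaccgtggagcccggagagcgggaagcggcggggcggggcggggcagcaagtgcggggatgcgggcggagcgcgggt
Irf8: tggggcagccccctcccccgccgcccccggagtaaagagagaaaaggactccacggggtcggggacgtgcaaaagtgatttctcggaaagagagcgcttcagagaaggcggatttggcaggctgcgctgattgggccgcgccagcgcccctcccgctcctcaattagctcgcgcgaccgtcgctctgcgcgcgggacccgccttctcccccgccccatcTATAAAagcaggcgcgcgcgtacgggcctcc
Xcr1: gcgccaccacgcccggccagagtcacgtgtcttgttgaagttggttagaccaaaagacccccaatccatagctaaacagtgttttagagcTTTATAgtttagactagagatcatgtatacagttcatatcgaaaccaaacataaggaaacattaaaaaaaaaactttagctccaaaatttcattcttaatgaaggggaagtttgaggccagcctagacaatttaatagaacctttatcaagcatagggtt

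The windows lie at chr7:128129300-128129549 on the plus strand for Itgax, chr1:191098164-191098413 on the plus strand for Batf3, chr8:120736108-120736357 on the plus strand for Irf8 and chr9:123862030-123862279 on the minus strand for Xcr1. The Itgax window held the AP-1 letters 56 bases before the start, and 6.75% of 32851 RefSeq windows of this length held them. The TATA letters stood 31 bases before the Irf8 start and, on the reverse strand, 160 bases before the Xcr1 start. They occur in 12.4% of all windows. The windows of Clec9a and Fscn1, not printed here, also held the TATA letters. The interferon element, found in 2.98% of all windows, and the PU.1 core, found in 2.44%, did not occur in any of the 11 windows. Batf3 matched no motif searched.

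The reference channel stood apart between the sets of arrays, and every ratio below rests on it. Cy3 correlated at 0.984 to 0.996 between arrays of the infiltrating fraction and at 0.986 to 0.997 between blood arrays, but at 0.882 to 0.93 across the sets (15295 probes above background on all arrays). Summed Cy3 signals of 7 hepatoma and liver genes were 73370 to 178500 units on arrays of the infiltrating fraction and 938.6 to 1204 units on blood arrays, although the labels give 1 source for both. A call below means an adjusted p under 0.05 and at least a 2-fold difference. Of all tested genes 8.93% were called between the Cy3 channels of the 2 sets, 7.48% higher on arrays of the infiltrating fraction and 1.45% lower. The cause was not tested. Ratios of the 2 sets correlated at -0.31 to -0.081, and their direction follows the dyes in the labels. For this reason the Cy5 channel was also compared between the sets, a choice made after the Cy3 signals were seen. Its values were normalized together with Cy3 within each array, so Cy5 alone below still rests in part on Cy3.

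Markers of other cells differed widely between the samples. In the Cy5 channel summed hepatoma and liver signals were 355100 to 743200 units in the infiltrating fraction and 797.1 to 1147 units in blood. Summed macrophage and monocyte signals (14 genes) were 356000 to 521000 units in the infiltrating fraction and 201700 to 284200 units in blood. Apoe and Lyz2, bright genes of this list picked after their values were seen, went opposite ways. Median Apoe was 190800 units in the infiltrating fraction and 3165 in blood, and median Lyz2 was 159200 and 238100. Erythroid and platelet signals (10 genes) summed to 271600 to 428900 units in the infiltrating fraction and 5629000 to 8154000 units in blood. B cell signals (9 genes) were 7302 to 12060 units in the infiltrating fraction and 42270 to 79730 units in blood. Probes well above background made up 51.1% to 65.8% of Cy5 probes for the infiltrating fraction and 24.8% to 36.3% for blood. Signals in units were not scaled between arrays here, so separations given in units also carry the brightness of the arrays.

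Against the reference, the infiltrating fraction had 4 of 7 hepatoma and liver genes called higher and 0 lower, 10 of 10 erythroid and platelet genes lower, and 4 of 7 neutrophil genes lower. Of T and NK cell genes 1 of 10 was called higher and 0 lower, and of endothelium and fibroblast genes 2 of 9 were called higher and 1 lower. In blood 4 of 7 neutrophil genes were called higher and 1 of 10 erythroid and platelet genes higher. Of all tested genes 9.32% were called higher and 10.1% lower in the infiltrating fraction, and 0.504% higher and 0.244% lower in blood.

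**Figure D1:**
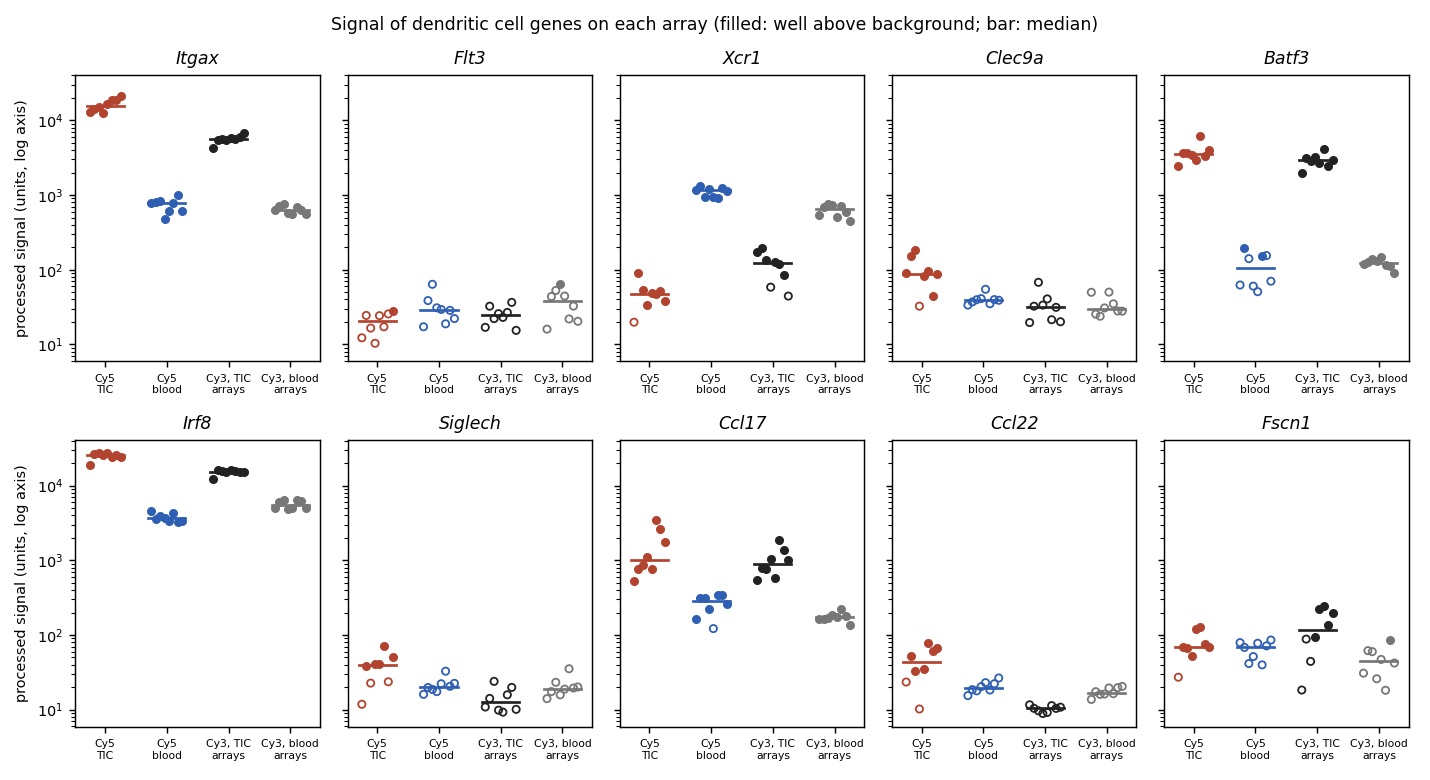
Processed Cy5 and Cy3 signals (units, log axis) of the 10 dendritic cell genes on each array, with Cy5 of the infiltrating fraction (TIC) left of blood and the 2 sets of Cy3 signals beside them. Filled points lay well above background and bars are medians (n = 8). In these units Itgax, Batf3, Irf8 and Ccl17 lie higher in the infiltrating fraction and Xcr1 lower, in both channels.

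Itgax and Irf8 were the dendritic cell genes that differed most firmly in ratio. Itgax was 2.58-fold above the reference in the infiltrating fraction and stayed near it in blood. Irf8 lay above the reference in every sample of the infiltrating fraction and below it in every blood sample by its brighter probe, while its other probe showed no such difference. Batf3 and Xcr1 differed past the threshold in Cy5 and, in the same direction, in Cy3. Their ratios differed by less than 2-fold, with overlap for Batf3 and without overlap for Xcr1. Siglech, Ccl22 and Fscn1 were at or near background, and Flt3 was not well above background on 15 of 16 samples.

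Against the reference, 1 of 9 tested genes was called in the infiltrating fraction (Itgax, higher), where 19.4% of all tested genes were called, 9.32% higher and 10.1% lower. In blood 0 of 9 were called by limma, where 0.747% of all tested genes were called, 0.504% higher and 0.244% lower. At an unadjusted limma p under 0.05 stood 3 of 9 in blood, beside 6889 of 12311 tested genes. Both comparisons share the reference RNA. It is a single control, so these tests leave out any spread between untreated mice. Between the infiltrating fraction and blood, the difference of ratios was called for 2 of 9 (Itgax and Irf8, both higher), where 23.8% of all tested genes were called, 12.1% higher and 11.8% lower. In Cy5 alone 4 of 9 were called, with Itgax, Batf3 and Irf8 higher and Xcr1 lower, where 33.1% of all tested genes were called, 18.4% higher and 14.7% lower. In Cy3 alone 3 of 9 were called, with Itgax and Batf3 higher and Xcr1 lower on arrays of the infiltrating fraction, beside 8.93% of all tested genes. These shares are of the order of those for all genes or below them, apart from Cy3, and 4 of the 9 genes passed the brightness filter only through the infiltrating fraction.

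Itgax encodes CD11c, the integrin alpha chain used to define dendritic cells, which many tissue macrophages also carry. Its Cy5 signal was lowest at 12640, median 15760 and highest at 21250 units in the infiltrating fraction, against 480.4, 782.2 and 994.4 units in blood. The groups did not overlap. Cy3 signals of the same probe, from the reference, were 4225, 5592 and 6844 units on arrays of the infiltrating fraction and 559.2, 637 and 756.8 units on blood arrays, and these did not overlap either. The log2 ratio had its lowest value at 0.86, its median at 1.497 and its highest value at 1.78 in the infiltrating fraction, against -0.24, 0.06 and 0.41 in blood. Every sample of the infiltrating fraction lay above every blood sample.

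Itgax rose by 1.37 ± 0.11 on the log2 scale in the infiltrating fraction over the reference (SE, n = 8, limma adjusted p = 3.7e-06). In blood the mean log2 ratio was 0.08 ± 0.06 (SE, n = 8, limma adjusted p = 0.28). The difference of ratios, infiltrating fraction minus blood, was 1.29 ± 0.13 (SE, 16 arrays, limma adjusted p = 1.31e-07). In Cy5 alone it was 2.46 ± 0.14 (limma adjusted p = 5.36e-12), and in Cy3 alone 1.18 ± 0.04 (limma adjusted p = 1.32e-13). Itgax was thus higher in the channel labelled as reference too. In these bulk samples, more cells of a type and more RNA per cell cannot be told apart, nor can fewer and less. Of 14 macrophage and monocyte genes, 6 were called higher, 1 lower and 7 not called in the infiltrating fraction against the reference. Of all tested genes 9.32% were called higher there and 10.1% lower. The part of macrophages in the Itgax difference was not tested.

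The Itgax ratio also separated the slides. The 4 samples of the infiltrating fraction on one slide (889, 890, 891 and 893) had log2 ratios of 1.46, 1.04, 0.96 and 0.86. The 4 samples on the other slide (894, 896, 897 and 898) had 1.55, 1.75, 1.54 and 1.78, all higher. Each slide held 1 group, so slide and samples cannot be told apart within it, nor can slide and group between the groups. The difference of ratios was 1.09 with the first slide of each group and 1.49 with the second, and both were called.

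Flt3, the receptor whose ligand drives dendritic cell development, was measured by 1 probe. It was well above background in 1 of 8 samples of the infiltrating fraction and 0 of 8 blood samples, and in Cy3 on 1 of 16 arrays. Its Cy5 signals were 10.34, 20.72 and 27.92 units (lowest, median, highest) in the infiltrating fraction, against 17.21, 28.95 and 63.77 units in blood. The groups overlapped, and such signals bound the level without giving it. When every probe was tested, the Flt3 log2 ratio was -0.04 ± 0.04 in the infiltrating fraction and -0.01 ± 0.04 in blood (SE, n = 8 each).

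**Figure D2:**
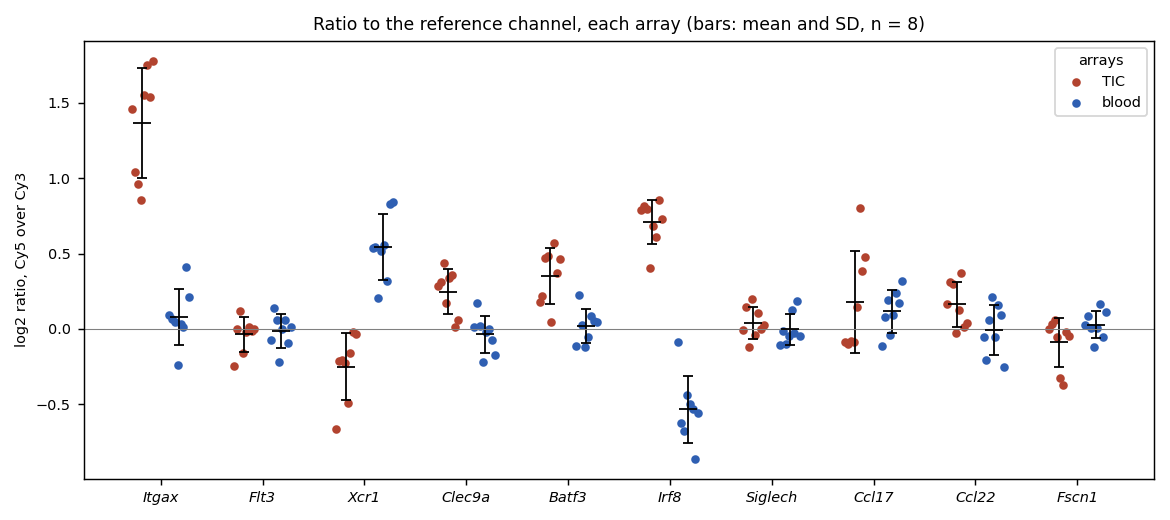
Log2 ratio of Cy5 over Cy3 for the 10 genes on each array, infiltrating fraction (TIC) left of blood, with the mean and SD (n = 8). Itgax and Irf8 of the infiltrating fraction lie above all blood samples and Xcr1 below them, and the other genes overlap.

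Among the cDC1 genes, Irf8 is a transcription factor that cDC1 require and that plasmacytoid cells, monocytes and B cells also express. It was represented by the brighter of its 2 tested probes. The Cy5 signal of this probe was lowest at 19180, median 25500 and highest at 27500 units in the infiltrating fraction, against 3263, 3647 and 4578 units in blood, with no overlap. Cy3 signals were 12220, 15470 and 16120 units on arrays of the infiltrating fraction and 4887, 5516 and 6448 units on blood arrays. The log2 ratio was 0.40, 0.76 and 0.86 (lowest, median, highest) in the infiltrating fraction, against -0.86, -0.54 and -0.09 in blood. All 8 samples of the infiltrating fraction lay above the reference and all 8 blood samples below it.

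The mean Irf8 ratio was 0.71 ± 0.06 on the log2 scale in the infiltrating fraction (SE, limma adjusted p = 2.41e-06) and -0.53 ± 0.06 in blood (SE, limma adjusted p = 6.4e-06). Both were under the 2-fold threshold. Their difference rose past it, at 1.24 ± 0.09 (limma adjusted p = 1.28e-09). In Cy5 alone the difference was 1.49 ± 0.09 (limma adjusted p = 5.19e-12). In Cy3 alone it was 0.25 ± 0.04 and not called. The second Irf8 probe disagreed. It was well above background in both channels on all 16 arrays, and its log2 ratio averaged -0.12 ± 0.07 in the infiltrating fraction and -0.10 ± 0.05 in blood (SE, n = 8 each). Its difference of ratios was -0.02 ± 0.08 (limma adjusted p = 0.801), and its Cy5 difference was 0.37 ± 0.08. With the mean over both probes the Irf8 difference was 0.61, no longer called. In the infiltrating fraction B cell genes moved against the brighter Irf8 probe: 9 of 9 tested were called lower against the reference. In blood they moved the same way as that probe, and 3 of 9 B cell genes were called lower. Their part in the Irf8 ratios was not tested.

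Batf3 is the AP-1 family transcription factor that pairs with Irf8 in cDC1. Its Cy5 signal was 2412, 3542 and 6247 units (lowest, median, highest) in the infiltrating fraction, against 50.75, 105.4 and 194.6 units in blood, where it was well above background in 2 of 8 samples. The groups did not overlap, and sample 896 was the highest of the infiltrating fraction. Cy3 followed: 1957, 2932 and 4082 units on arrays of the infiltrating fraction and 89.56, 124 and 149.2 units on blood arrays. Batf3 therefore rose by 1.92 ± 0.13 in Cy5 (SE, 16 arrays, limma adjusted p = 4.65e-11) and by 1.58 ± 0.08 in Cy3 (limma adjusted p = 7.82e-12). These sizes depended on the scaling. With scaling to the 75th percentile they were 3.625 in Cy5 and 3.027 in Cy3. The log2 ratio was 0.04, 0.42 and 0.57 in the infiltrating fraction and -0.12, 0.04 and 0.23 in blood, with overlap. The difference of ratios was 0.33 ± 0.08 (limma adjusted p = 0.00107), under the 2-fold threshold. Centring each array on its median or on its spike-in spots gave called differences of 2.29 and 1.64, and subtraction to a floor gave 0.40 (limma adjusted p = 0.151).

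Xcr1 is the chemokine receptor that marks cDC1 and guides them towards cells secreting Xcl1. Its brighter probe went against the other genes. Cy5 signals were 19.81, 48.01 and 91.41 units (lowest, median, highest) in the infiltrating fraction, against 925.1, 1155 and 1303 units in blood, with no overlap. Cy3 signals were 44.37, 121.8 and 197.2 units on arrays of the infiltrating fraction and 453.6, 645.4 and 750.8 units on blood arrays. Xcr1 fell by 2.33 ± 0.07 in Cy5 (SE, 16 arrays, limma adjusted p = 9.28e-16). In Cy3 it fell by 1.535 ± 0.06 (limma adjusted p = 3.86e-13). Over the alternative settings these differences ran from -6.19 to -2.302 in Cy5 and from -4.068 to -1.502 in Cy3. In the infiltrating fraction Xcr1 was well above background in Cy5 in 7 of 8 samples and in Cy3 on 6 of 8 arrays. Its mean log2 ratio was -0.25 ± 0.07 in the infiltrating fraction (limma adjusted p = 0.0123) and 0.54 ± 0.06 in blood (limma adjusted p = 4.76e-06). All 8 samples of the infiltrating fraction lay below 0 and all 8 blood samples above it. The difference of ratios, -0.79 ± 0.10 (limma adjusted p = 2.67e-06), was under the 2-fold threshold. This difference of Xcr1 ratios depended on the processing. It was -0.22 with median centring (limma adjusted p = 0.142), but was called with subtraction to a floor and in the deposited ratios, where it was -2.09. In blood the Xcr1 ratio was 0.01 with median centring (limma adjusted p = 0.959) and 0.03 with spike-in centring (limma adjusted p = 0.969). The second Xcr1 probe was well above background in 1 of 8 samples of the infiltrating fraction and in 0 of 8 blood samples, so it could not be set against the first.

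Clec9a, the cDC1 receptor for actin exposed by dead cells, was well above background in 7 of 8 samples of the infiltrating fraction, in 0 of 8 blood samples and in Cy3 on 0 of 16 arrays. Its Cy5 signals were 32.49, 88.26 and 182.5 units in the infiltrating fraction, against 33.64, 39.3 and 54.68 units in blood, with overlap at the low end. With the detection limit standing in for the dim side, the fold was 1.1 against blood and 1.17 against the reference. The mean of the infiltrating fraction took in all 8 samples, also where Clec9a was not well above background. Over the alternative settings the log2 difference ran from -0.475 to 2.557 in Cy5 against blood. The log2 ratio to the reference ran from -0.474 to 1.453. The measured normalized Cy5 means were 6.71 in the infiltrating fraction and 6.50 in blood on the log2 scale, and the detection limit that stood in for blood averaged 6.57. The folds set the dim side at the higher of the lowest signal well above background and the probe's own signal on each array. A dye bias in them was not removed. Clec9a was tested only because of its signal in the infiltrating fraction.

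Siglech, a receptor of the plasmacytoid surface, was the only plasmacytoid gene of the set. It was well above background in 5 of 8 samples of the infiltrating fraction, in 0 of 8 blood samples and in Cy3 on 0 of 16 arrays. Cy5 signals were 11.82, 39.66 and 70.63 units in the infiltrating fraction, against 16.05, 20.19 and 32.76 units in blood, with overlap. Its log2 ratio was 0.04 ± 0.05 in the infiltrating fraction and 0.00 ± 0.04 in blood (SE, n = 8 each), and neither passed the test. No fold against blood is given because, with the detection limit standing in for blood, it was below 1.

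Among the maturation genes, Ccl17 encodes a ligand of Ccr4 that draws regulatory and type 2 helper T cells. It was well above background in 8 of 8 samples of the infiltrating fraction and 7 of 8 blood samples. Its Cy5 signal was 523.4, 997.6 and 3521 units (lowest, median, highest) in the infiltrating fraction, against 121.9, 288.2 and 346.7 units in blood. In these units all samples of the infiltrating fraction lay above all blood samples, and the spread within the infiltrating fraction was wide. Cy3 signals were 544.5, 892.5 and 1883 units on arrays of the infiltrating fraction and 136, 173.8 and 223.8 units on blood arrays, again without overlap. In normalized Cy5 the groups overlapped, at 7.394 to 8.918 in the infiltrating fraction and 7.181 to 7.557 in blood on the log2 scale. The difference was 0.52 ± 0.19 in Cy5 (SE, 16 arrays, limma adjusted p = 0.0184) and 0.46 ± 0.10 in Cy3 (limma adjusted p = 0.000637), both under the 2-fold threshold. The log2 ratio averaged 0.18 ± 0.11 in the infiltrating fraction (limma adjusted p = 0.151), 0.12 ± 0.05 in blood (limma adjusted p = 0.0653), and 0.06 ± 0.12 for their difference (limma adjusted p = 0.655).

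Ccl17 ratios followed the slide in the infiltrating fraction. Samples 889, 890, 891 and 893 had log2 ratios of -0.09, -0.10, -0.08 and -0.09. Samples 894, 896, 897 and 898, on the other slide, had 0.14, 0.80, 0.38 and 0.47. The difference of ratios was -0.12 with the first slide of each group and 0.25 with the second, and neither was called. Sample 896 had the highest Ccl17 signal in both channels.

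Cy3 and Cy5 signals of several genes moved together from array to array in the infiltrating fraction. Over 18 relations (9 genes on each set of arrays, log2 signals, n = 8 each, two-sided exact permutation tests), Pearson's r passed an adjusted p under 0.05 for 5 of 9 genes on arrays of the infiltrating fraction and for 2 of 9 on blood arrays. On arrays of the infiltrating fraction these were Ccl17 (r = 0.959), Irf8 (0.944), Batf3 (0.914), Fscn1 (0.876) and Itgax (0.749), and on blood arrays Ccl22 (0.931) and Siglech (0.890), both at background there. Arrays share brightness, and over all tested genes the median r was 0.695 on arrays of the infiltrating fraction, with an upper quartile of 0.859, so such values were common.

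By Spearman's rho 1 of 9 genes passed on each set, Ccl17 on arrays of the infiltrating fraction (rho = 0.952, exact permutation p = 0.0011, adjusted p = 0.0205) and Ccl22 on blood arrays (rho = 0.905, exact permutation p = 0.0046, adjusted p = 0.0411). For Ccl17 the exact permutation p of r was 0.0001 (adjusted p = 0.0027), and r was 0.866 without the 2 samples farthest from the median Cy5 signal. Within slides, with values relative to the slide mean and orders permuted within each slide, no relation passed the adjustment. The Ccl17 value there was r = 0.990 (exact permutation p = 0.0035, adjusted p = 0.0625) and rho = 0.9 (exact permutation p = 0.0243, adjusted p = 0.281). This alternative was chosen after the data were seen.

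Ccl22, the other Ccr4 ligand, was well above background in 6 of 8 samples of the infiltrating fraction, in 0 of 8 blood samples and in Cy3 on 0 of 16 arrays. Cy5 signals were 10.22, 43.62 and 78.13 units in the infiltrating fraction, against 15.44, 19.44 and 26.56 units in blood, with overlap. With the detection limit standing in for the dim side, the fold was 1.04 over blood and 1.09 over the reference. The mean of the infiltrating fraction took in samples where Ccl22 was not well above background. Over the alternative settings the log2 difference ran from -0.629 to 2.403 in Cy5 against blood. The log2 ratio to the reference ran from -0.701 to 1.875. Ccl22 too was tested only because of its signal in the infiltrating fraction. Fscn1 encodes fascin, the actin bundling protein of the long processes of mature dendritic cells. It was well above background in 7 of 8 samples of the infiltrating fraction, in 0 of 8 blood samples and in Cy3 on 6 of 16 arrays. Its Cy5 signals, 27.22, 69.26 and 128.4 units in the infiltrating fraction and 39.82, 69.94 and 85.63 units in blood, overlapped almost fully. Its log2 ratio was -0.09 ± 0.06 in the infiltrating fraction and 0.03 ± 0.04 in blood (SE, n = 8 each).

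**Figure D3:**
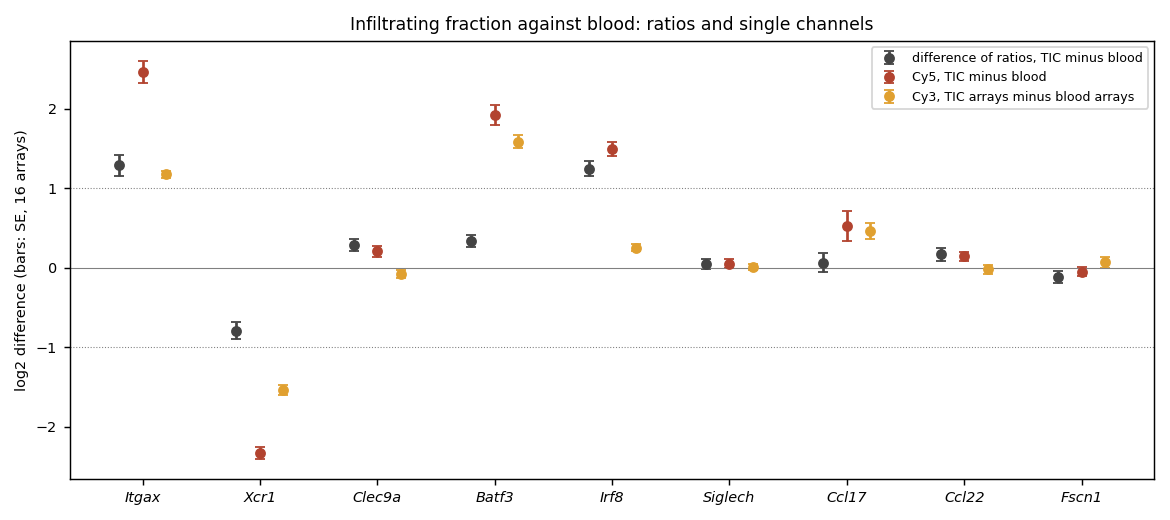
Log2 differences between arrays of the infiltrating fraction and of blood for the 9 tested genes, as the difference of ratios, in Cy5 alone and in Cy3 alone (mean and SE, 16 arrays). Dotted lines mark a 2-fold difference; Cy5 and Cy3 move together for Itgax, Batf3 and Xcr1, while Irf8 moves mainly in Cy5.

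The wider gene lists gave a mixed picture. They were written with earlier results of these data known. Their counts in the infiltrating fraction stand beside 19.4% of all tested genes called against the reference, 9.32% higher and 10.1% lower. Against the reference, the list of pan dendritic cell and growth factor genes had 2 called higher and 5 lower of 14 in the infiltrating fraction, with a median log2 ratio of 0.06 beside 0.05 over all tested genes. Zbtb46, a transcription factor of conventional dendritic cells that erythroid progenitors also express, fell by 3.41 ± 0.38 (limma adjusted p = 3.02e-05). Its Cy5 signal was 30.45, 59.22 and 90.62 units in the infiltrating fraction, against 4581, 7250 and 12090 units in blood. In blood Zbtb46 rose by 1.20 ± 0.08 over the reference (limma adjusted p = 1.98e-08), a call lost under median or spike-in centring. Id2, a transcription factor that cDC1 require and many other cells express, rose by 3.21 ± 0.08 in the infiltrating fraction (limma adjusted p = 3.52e-10). Bcl11a, a factor of plasmacytoid and B cells, fell by 2.32 ± 0.29. Csf2rb, the shared receptor chain for GM-CSF, fell by 2.03 ± 0.27, a call lost under median centring.

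Of 12 tested cDC1 genes, the 4 members included, 2 were called higher and 0 lower in the infiltrating fraction, with a median of 0.18. At an unadjusted p under 0.05 limma gave 11 of 12, beside 9648 of 12311 tested genes. Rab7b, a small GTPase of late endosomes, rose by 2.38 ± 0.08 (limma adjusted p = 2.99e-09), with Cy5 signals of 15570, 19540 and 24100 units in the infiltrating fraction against 125.8, 193.8 and 340.5 units in blood. Cadm1, an adhesion molecule of cDC1 that epithelial cells also carry, rose by 1.95 ± 0.21. In Cy5 alone against blood, 4 of the 12 cDC1 genes were called higher and 2 lower, beside 18.4% and 14.7% of all tested genes. Besides Xcr1, Snx22, named here after its values were seen, fell by 1.545 ± 0.08 there (limma adjusted p = 1.99e-12). Of 11 tested genes of type 2 conventional dendritic cells, 4 were called higher and 1 lower against the reference, with a median of 0.25. Clec10a, a C-type lectin shared with macrophages, rose by 2.02 ± 0.11, its relative Mgl2 by 1.76 ± 0.09 and Klf4, a transcription factor of monocytes and many other cells, by 1.74 ± 0.07. Tbx21, the transcription factor T-bet, rose by 1.40 ± 0.10 and is best known from T and NK cells.

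Of 18 tested plasmacytoid genes, 3 were called higher and 6 lower in the infiltrating fraction, with a median of -0.61. Ly6d, which B cells also express, fell by 4.50 ± 0.15 (limma adjusted p = 3.7e-09). Spib, a transcription factor of plasmacytoid and B cells, fell by 2.63 ± 0.30. Irf7, which drives interferon genes, fell by 1.99 ± 0.19, a call lost under median or spike-in centring. The 3 called higher were Tcf4, the transcription factor that plasmacytoid cells require, at 1.15 ± 0.06, Runx2 at 1.97 ± 0.22 and Ptprf at 1.68 ± 0.11, and they are named here after their values were seen. B cell genes, lower in 9 of 9, moved with the genes of this list that B cells share, and their part was not tested.

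Of 25 tested maturation and migration genes, 6 were called higher and 2 lower, with a median of 0.28. Anxa3, an annexin, rose by 3.24 ± 0.07 (limma adjusted p = 1.44e-10), and Socs2, a suppressor of cytokine signalling, rose by 1.85 ± 0.13. Marcks, a regulator of the actin cortex, rose by 1.85 ± 0.09. Ccr7, the receptor that guides mature dendritic cells and naive lymphocytes to lymph nodes, fell by 2.53 ± 0.22 (limma adjusted p = 4.55e-06), a call lost under median centring. Its Cy5 signal was 370.4, 525.7 and 723.2 units in the infiltrating fraction, against 1659, 2141 and 2669 units in blood. The costimulatory genes Cd80, Cd86 and Cd83, picked after their values were seen, had log2 ratios of 0.38, 0.56 and 0.38. They were not called against the reference. Their median Cy5 signals were 236.9, 548.6 and 5314 units in the infiltrating fraction, against 32.56, 35.93 and 1018 units in blood, without overlap. Median Cy3 signals were 22.3, 126.3 and 4564 units on arrays of the infiltrating fraction and 21.86, 63.94 and 1961 units on blood arrays.

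Of the ligands and receptors of the set, 3 of 7 tested were called higher in the infiltrating fraction and 0 lower, with a median of 0.46. The chemokine Ccl4 rose by 3.67 ± 0.12, Ccl3 by 2.10 ± 0.09 and Ccl5 by 1.30 ± 0.10 (SE, n = 8). Xcl1, the ligand of Xcr1, had a log2 ratio of -0.03 ± 0.08, with Cy5 signals of 413.1, 781.7 and 1220 units in the infiltrating fraction against 29.51, 50.01 and 85.01 units in blood. Its Cy3 signals separated in the same way, at 373.9, 817.7 and 1115 units on arrays of the infiltrating fraction and 37.73, 57.31 and 87.75 units on blood arrays. Flt3l, the ligand of Flt3, had a log2 ratio of -0.69 ± 0.11, under the threshold, and fell by 1.63 ± 0.10 in Cy5 alone against blood (limma adjusted p = 1e-11). Itgb2, the beta chain that pairs with Itgax, had a log2 ratio of -0.66 ± 0.08 while Itgax was at 1.37, and Icam1, a ligand of beta 2 integrins, was at 0.46 ± 0.10. Ccr4, the receptor of Ccl17 and Ccl22, was too dim to be tested.

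In blood against the reference few list genes passed the 2-fold threshold, beside 0.747% of all tested genes. Called higher and lower were 1 and 0 of 14 pan dendritic cell genes, 1 and 1 of 11 type 2 genes, and 0 and 1 of 18 plasmacytoid genes. Without the 2-fold threshold, an adjusted p under 0.05 was reached by 11 of 14 pan dendritic cell genes, 4 of 11 type 2 genes and 11 of 18 plasmacytoid genes, beside 6129 of 12311 tested genes. For cDC1, maturation and ligand genes limma called 0 of 12, 0 of 25 and 0 of 7, with 4, 11 and 3 at an unadjusted p under 0.05. Of all tested genes 6889 of 12311 reached that unadjusted p. The type 2 calls were Tbx21, up by 1.13 ± 0.10, and Klf4, which fell by 1.01 ± 0.07. The plasmacytoid call was Ly6d, which fell by 1.29 ± 0.09, alongside the B cell genes.

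**Figure D4:**
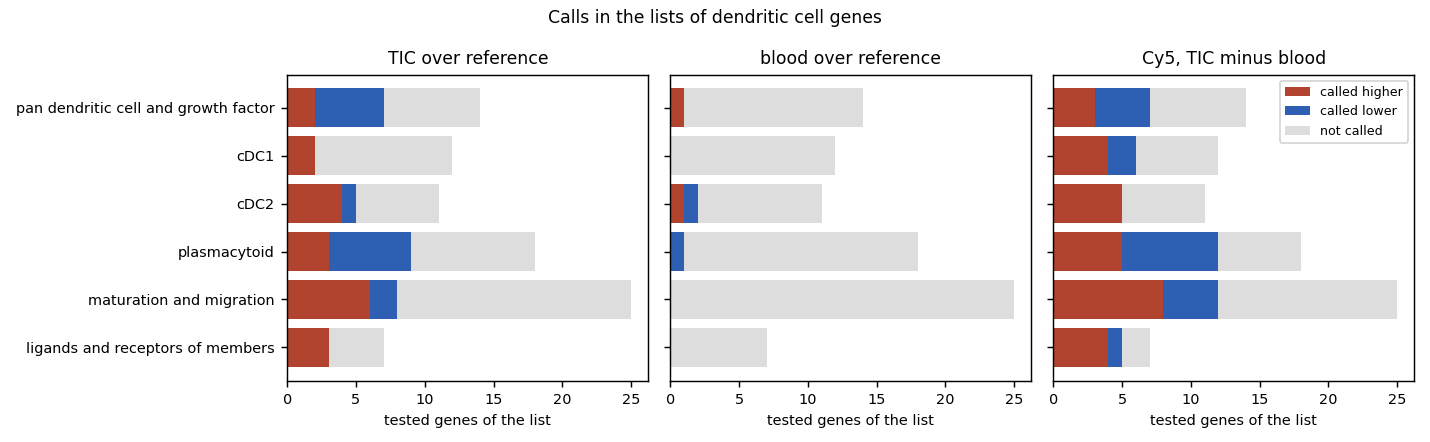
Tested genes of each dendritic cell list by call (adjusted p under 0.05 and at least 2-fold), for the infiltrating fraction over the reference, blood over the reference, and Cy5 of the infiltrating fraction minus blood. The plasmacytoid list has 6 of 18 called lower in the infiltrating fraction, and blood has at most 2 calls in a list.

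Likeness was measured as Pearson's r of log2 ratios over 16 arrays, each value taken relative to its group mean. The genes most like Itgax among 12283 were Plcb3 (0.935), P4ha2 (0.932) and Gosr2 (0.909). Irf8 was most like Rnaset2b (0.924), and Ccl17 most like Apoc1 (0.956), a lipoprotein gene of liver and macrophages. Between members the highest r was 0.744, for Itgax and Ccl17, whose ratios both separated the slides of the infiltrating fraction. Irf8 and Batf3 had an r of -0.422. These values describe arrays that share slides and channels.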

How the data were processed

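The deposited scanner files give each spot's median intensity and local background in Cy5 and Cy3, extracted with Agilent Feature Extraction 10.5.1.1 per the file headers (9.1.3.1 per the submitters' processing notes). They also hold processed signals, quoted here as units of intensity, and a log10 ratio (Cy5 over Cy3) that equals the value table deposited by the authors. Its median is 0 on every array.

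Intensities were corrected with normexp (offset 50), loess normalized within arrays and averaged per probe, without control and flagged spots. For single channels, Aquantile followed on the loess normalized arrays, so the values of each channel still draw on the other. A probe was tested if its Cy5 signal stood well above background in 4 or more of the 8 samples of either group, or its Cy3 signal on 8 or more of 16 arrays: 26509 of 41174, covering 12311 genes. Of the probes 23374 had 1 gene symbol through RefSeq and 17800 none. A gene is represented by its brightest tested probe. No spot was saturated. The log2 ratios were tested with limma 3.58.1 in R 4.3.3, with Benjamini-Hochberg adjustment over all tested probes, and the fit was tested on simulated data. Permutation tests used full enumeration in Python 3.11.15 with numpy 2.4.6.

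Groups came from the sample titles. The genes and lists were chosen with earlier results of these data known. The text names every member. From each list it names called genes, at most 4 with the largest absolute difference among those bright enough in 4 samples on both sides, plus ligands and receptors of members; other names are marked, and 1 gene that this rule names is not reported here. Of 178 listed genes 152 were tested. The number of arrays limits the precision. Alternatives covered centring, background correction, deposited ratios, filters, probes, slides, pairing and leaving out samples.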

Additional observations from a re-analysis of the deposited data

Results flagged for a closer look

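In Cy5 the normalized log2 intensity of Irf8 was 11.307 in sample 893 of the infiltrating fraction, apart from the other 7 samples, of which the nearest was at 11.553. Among 36 groups of 8 values examined this was the only one with a sample standing apart by Dixon's criterion, which chance meets in about 1 in 20 groups.

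Irf8 had opposite signs against the reference in every sample of the infiltrating fraction and of blood, and the tested difference was 1.243 by its brighter probe. The Itgax ratio differed between the infiltrating fraction and blood by 1.286. Both differences were tested with limma.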

How the results depend on the processing

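Loess kept the median log2 ratio of all genes near 0 (0.05 for the infiltrating fraction over the reference, -0.02 for blood). Median centring moved these to 1.20 and -0.16, spike-in centring to 0.57 and -0.14 and the deposited ratios to 0.17 and -0.11. The share of calls that were higher in the infiltrating fraction, 48% with loess, became 94.4%, 80.8% and 55%. In blood it was 67.4%, and became 1.12%, 1.62% and 34.1%. For the difference of ratios it was 50.6%, and became 95.7%, 82.8% and 60.4%. Calls among the 9 genes moved too. Against the reference, the infiltrating fraction had 1 call, but 5 in the deposited ratios (Itgax, Clec9a, Siglech and Ccl22 higher, Xcr1 lower), 4 with median centring, 4 with spike-in centring (Itgax, Batf3, Irf8 and Ccl17 in both) and 2 with subtraction to a floor (Itgax and Clec9a). Blood had 0 calls, but 1 with median and 1 with spike-in centring, both Irf8, at -1.21 and -1.18. The difference of ratios had 2 calls, but 7 in the deposited ratios, 4 with median centring, 4 with spike-in centring, 4 with subtraction to a floor, 1 with the mean over probes and 4 in Cy5 alone. In Cy5 alone 4 calls became 9 with spike-in scaling, where the median of all genes was 3.29. There the uncalled Fscn1 difference of -0.05 became a called 1.63. Scaling Cy5 to the 75th percentile gave 5 calls, 3 higher and 2 lower. In Cy3 alone 3 calls became 6 with scaling to the 75th percentile, and the uncalled Siglech difference of 0.01 became a called -2.09. The cause of these shifts was not tested.

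Leaving out 1 sample at a time gave 1 to 1, 0 to 0, 2 to 2, 4 to 4 and 3 to 3 calls in the 5 comparisons. Ccl17's uncalled difference of ratios ran from -0.03 to 0.10. Filters, no background correction and slides left these counts as they were. No slide held both groups, so the slide settings cannot separate slide from group. Same-numbered samples of the 2 groups correlated at -0.165 to 0.2 in their deviations, and 2 of 8 correlated best with their own number, so the numbers are not shown to pair the samples. With the sample number as a replicate block the counts stayed at 2 for the difference of ratios, 4 in Cy5 and 3 in Cy3. This block is balanced, so it leaves the sizes of these differences unchanged. Signal over background limits Flt3, Siglech, Clec9a, Ccl22, Fscn1 and the second Xcr1 probe.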
